A study of Mus musculus with 30 samples.

Results

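Costimulatory and checkpoint molecules are the proteins with which a cell that presents antigen raises or restrains the response of a T cell. The set described here was listed by name, with earlier results of these data known. It held 8 genes of the 46078 in the deposited count table, each matched by its Ensembl identifier. They are the costimulatory ligands Cd80, Cd86 and Icosl, the costimulatory receptor Cd40, the checkpoint ligands Cd274, Lgals9 and Vsir, and the checkpoint receptor Havcr2. Although such sets are often called ligands, Cd40 and Havcr2 act as receptors on the myeloid cell, so 6 of the 8 are ligands for a T cell. All 8 passed the filter on low counts and were tested in every comparison.

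A T cell needs a signal through its antigen receptor and a second one through CD28 or ICOS. CD80 and CD86 bind CD28 and, as a brake, CTLA-4, and ICOSL binds ICOS. CD40 on the presenting cell receives CD40L from helper T cells and signals through TRAF proteins to NF-kappaB. PD-L1, the product of Cd274, binds PD-1 and dampens T cells, and its transcription is known to be raised by interferon-gamma. VISTA (Vsir) is a checkpoint protein abundant on resting myeloid cells, microglia among them, galectin-9 (Lgals9) binds TIM-3, and TIM-3 (Havcr2) is also carried by microglia itself.

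RNA was sequenced from 30 libraries of microglia, the macrophages that live in the brain and spinal cord, from C57BL/6 mice in 8 groups. The KO genotype is labelled Atg7fl/fl Cx3cr1CreERT, that of WT is labelled Atg7wt/wt Cx3cr1CreERT2, so both genotypes carried an inducible Cre that acts in cells expressing Cx3cr1, and both received 3 doses of 4 mg tamoxifen at intervals of 48 h. At least 18 days later, experimental autoimmune encephalomyelitis (EAE) was induced with recombinant mouse myelin oligodendrocyte glycoprotein and pertussis toxin. The labels give age as young or old only and give the old mice no Atg7 deletion. Whether old mice carried Cre or received tamoxifen, and whether replicates are separate mice, is not stated. P-values therefore measure the spread between these libraries, each a pool of cells from females and males, and that spread may be technical. There were 4 KO, 4 old and 4 WT libraries from naive mice, 4 KO and 3 WT libraries at day 21 of EAE, and 4 KO, 3 old and 4 WT libraries at day 35. The EAE scores deposited for these libraries averaged 2.94 in KO and 2.67 in WT at day 21, and 2.75 in KO, 2.83 in old mice and 1.25 in WT at day 35. Libraries are named below by group and replicate, as in naive WT 3.

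Total counts ran from 4712803 to 11034565 with a median of 6769302. Atg7 (ENSMUSG00000030314), the targeted gene, averaged 20.2 ± 8.62 CPM in naive KO and 31.6 ± 6.32 CPM in naive WT (SD, n = 4 each), but 32.8 ± 2.73 CPM in KO and 23.2 ± 3.02 CPM in WT at day 21 (SD, n = 4 and 3). At day 35 it averaged 32.5 ± 1.54 CPM in KO and 22.6 ± 1.41 CPM in WT (SD, n = 4 each). Every KO library thus lay above every WT library at both EAE stages, and edgeR called Atg7 at no stage (adjusted p = 0.516 in naive mice, 0.303 at day 21, 0.338 at day 35). A count over the whole gene cannot show the loss of an exon, so the levels check the genotype labels neither way, and KO and WT stand below for libraries so labelled.

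The cells had been sorted as live, CD11b+, CD45 intermediate and Ly6G−, and/or by eYFP. The microglial marker Csf1r was high in every group, with group means of 4196 to 7805 CPM. Markers of other cells were also counted. Of 4 libraries with outlying sums of markers, naive WT 3 had the highest sum of 12 neutrophil markers among naive libraries (16310 CPM) and naive KO 4 the lowest (115 CPM). Day 35 KO 4 had 3298 CPM of neutrophil markers and 12910 CPM of 10 microglial markers, and day 35 old 1 had 31720 and 9340 CPM. Each call of the 8 genes that changed in a fit without all 4, an alternative chosen after the data were seen, is given below, beside its result or in a later paragraph. None of the 4 is a day 21 or day 35 WT library. Comparisons among those groups keep all their libraries in that fit. Only the spread shared between groups, the filter and the scaling can change there. In such bulk RNA, fewer cells of a type and less RNA per cell cannot be told apart.

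Levels in CPM, a count scaled to library size by TMM, spanned a wide range among the 8 genes. Set per kilobase of exon, Vsir was the highest in every group, and Cd40 was the lowest in every group but day 21 KO, where it stood at 7.49 ± 0.786 CPM per kb and Cd80 at 2.61 ± 0.314 (SD, n = 4). In naive WT the level was 483 ± 42.4 CPM per kb for Vsir, 155.9 ± 10.3 for Havcr2, 77.95 ± 2.82 for Lgals9, 53.9 ± 9.51 for Cd86, 31.1 ± 1.47 for Icosl, 4.89 ± 2.14 for Cd274, 3.69 ± 0.37 for Cd80 and 0.252 ± 0.214 for Cd40 (SD, n = 4). At day 21 the order changed in KO, where Cd274 stood at 62.3 ± 1.93 CPM per kb (SD, n = 4), above Icosl at 48.0 ± 1.63 and Cd86 at 45.1 ± 2.34. In day 21 WT Cd274 stood at 22.1 ± 3.68 CPM per kb (SD, n = 3), below both. Vsir made up 34.7 ± 0.967% of the summed level per kb of the 8 genes in day 21 KO and 50.3 ± 0.702% in day 21 WT, and Cd274 made up 11.6 ± 0.283% in day 21 KO and 3.16 ± 0.572% in day 21 WT (SD, n = 4 and 3).

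**Figure D1:**
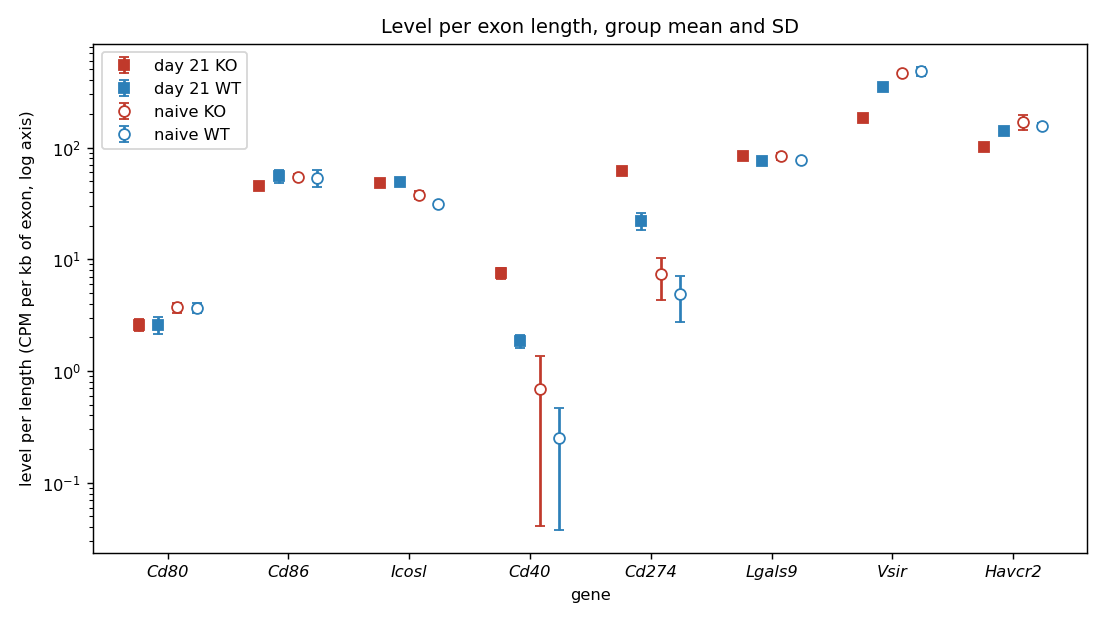
Mean level per kilobase of exon on a log axis for the 8 genes in day 21 KO, day 21 WT, naive KO and naive WT, with the SD between libraries as bars (n = 4, 3, 4 and 4). Vsir is the highest in each of these groups, Cd40 is the lowest in all but day 21 KO, and Cd274 of day 21 KO (62.3 CPM per kb) lies above that of day 21 WT (22.1 CPM per kb).

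Each comparison was tested in 1 edgeR quasi-likelihood fit of all 30 libraries, with Benjamini-Hochberg adjustment over 13880 genes and calls at an adjusted p under 0.05. At day 21, KO against WT called 3 of the 8 genes, where 19.0% of all genes tested were called. Among naive mice KO against WT called none of the 8 with edgeR or DESeq2, with 0.288% of all genes called by edgeR, and 3 of the 8 and 9.32% of all genes were at an unadjusted p under 0.05. At day 35 it also called none of the 8 with either tool, with 2.62% of all genes called, and 1 of the 8 and 19.3% of all genes at an unadjusted p under 0.05. Against naive WT, day 21 WT called 4 of the 8 and day 35 WT 3 of the 8, with 21.5% and 19.1% of all genes called. Against naive KO, day 21 KO called 6 of the 8 and day 35 KO 5 of the 8, with 45.2% and 21.4% of all genes called. Day 35 KO against day 21 KO called 5 of the 8 (24.9% of all genes), and day 35 WT against day 21 WT called none with edgeR or DESeq2 (0.0648% of all genes), with 1 of the 8 and 6.74% of all genes at an unadjusted p under 0.05. Naive old against naive WT called 3 of the 8 (8.18% of all genes), and day 35 old against naive old 2 of the 8 (18.4%). Day 35 old against day 35 WT called none with edgeR or DESeq2 (9.45% of all genes), with 1 of the 8 and 23.4% of all genes at an unadjusted p under 0.05. The comparisons against naive WT share its 4 libraries, those against naive KO share theirs, and the day 21 KO and day 21 WT libraries also enter more than 1 comparison.

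**Figure D2:**
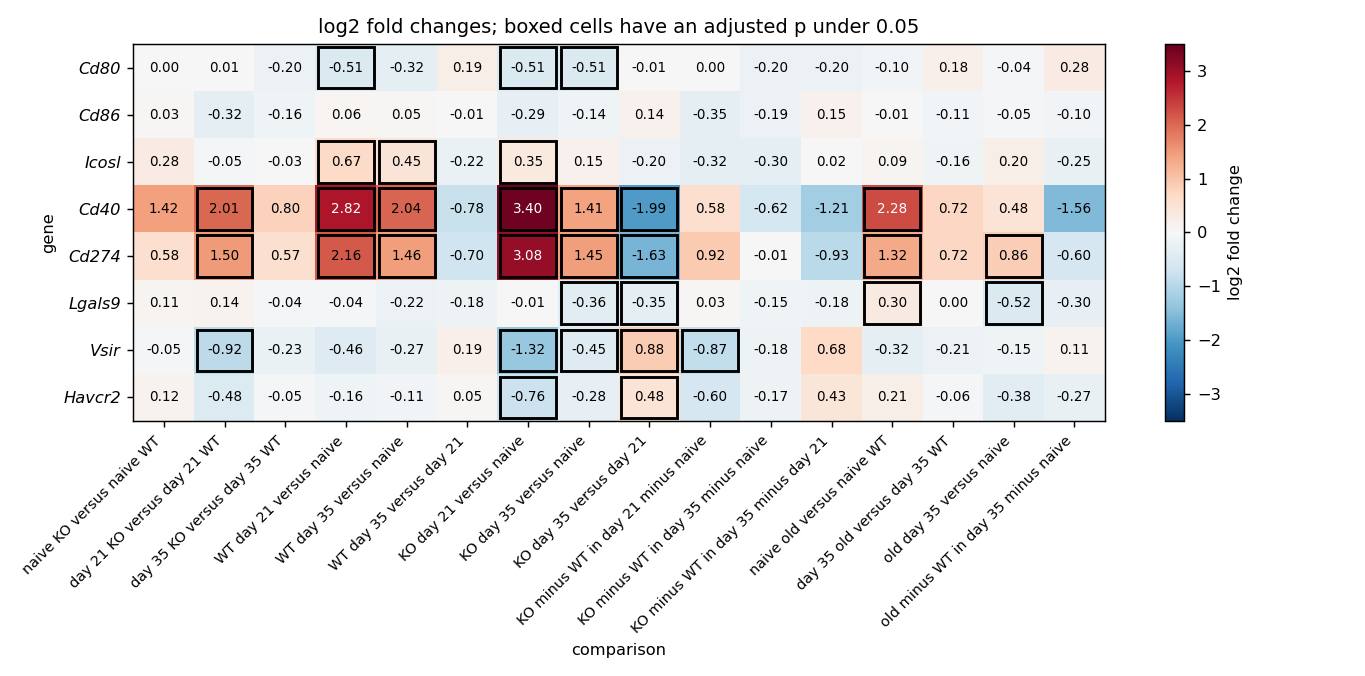
Log2 fold changes of the 8 genes (down the page) in 16 comparisons (across), coloured from blue for lower to red for higher in the group named first, with a box around those with an edgeR adjusted p under 0.05. Cd40 and Cd274 are boxed as higher, and Vsir as lower, in day 21 KO against day 21 WT.

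Markers of other cells moved with the day 21 difference. Of the 10 microglial markers, 9 were lower in KO than in WT and none higher, and their sum was 9993 to 10650 CPM in day 21 KO and 18390 to 21230 CPM in day 21 WT. Of 10 monocyte markers 5 were higher and none lower, with sums of 2081 to 2848 CPM in KO and 181 to 481 CPM in WT, most of it from Fn1 (2085 and 283 CPM on average). Of 10 markers of border macrophages 5 were higher, with sums of 1106 to 1209 CPM in KO and 468 to 752 CPM in WT. Of 11 T cell markers 5 were tested and all 5 were higher, with sums of 23.6 to 28.8 CPM in KO and 1.496 to 7.54 CPM in WT, where Cd8b1 and Trbc2 had no count. Dendritic cell markers summed to 38.8 to 40.5 CPM in KO and 31.7 to 33.0 CPM in WT, with 2 of 8 tested higher, and neutrophil markers to 51.4 to 101.2 CPM and 7.47 to 29.3 CPM, with none of 12 called. All 5 erythroid markers were lower, with sums of 0.785 to 4.00 CPM in KO and 25.96 to 81.5 CPM in WT. Of 3 tested B cell markers 2 were lower, with sums of 110.9 to 141.5 CPM in KO and 234.4 to 255.9 CPM in WT. Of 5 tested neuron markers 1 was lower (4.71 to 6.82 CPM in KO, 22.4 to 58.6 CPM in WT). No astrocyte or oligodendrocyte marker was called. Mitochondrial genes took 8.35% to 9.12% of the counts in day 21 KO and 6.41% to 8.26% in day 21 WT. Against naive, all 12 neutrophil markers were lower in WT at day 21 and at day 35, 11 were lower in KO at day 21 and none was called in KO at day 35, while 9 of the 10 microglial markers were lower in KO at day 21 and 4 in WT. At day 35, 7 of the 10 microglial markers were lower and 1 higher in KO, while 3 were lower in WT and 4 in old. Of the 10 border macrophage markers, 8 were lower in WT at each stage and 3 in KO at day 21 (1 higher). At day 35, 7 were lower in KO and 6 in old. Of the 10 monocyte markers, 5 were lower in WT at each stage, while 2 were higher in KO at day 21 and 1 at day 35. In KO at day 35 all 7 astrocyte, 5 of 6 tested oligodendrocyte, 4 of 5 tested neuron and all 5 erythroid markers were higher. Changes against naive in other marker lists are not reported here. In day 35 old against day 35 WT all 12 neutrophil and 7 of the 10 monocyte markers were higher. So were 1 dendritic cell, 1 border macrophage and 1 B cell marker. The neutrophil sums were 31720 CPM in day 35 old 1, 1942 CPM in old 2 and 71.8 CPM in old 3. In day 35 WT they ran from 4.38 to 39.2 CPM and in day 35 KO from 117.6 to 3298 CPM. In day 35 KO against day 35 WT 5 of the 12 neutrophil and 1 of the 5 erythroid markers were higher. No microglial or monocyte marker was called there. Between day 21 and day 35 in KO, where Cd40, Cd274 and Lgals9 fell and Vsir and Havcr2 rose, markers moved as well. At day 35, 8 of the 10 microglial, 7 of the 12 neutrophil, all 5 erythroid, all 5 tested neuron and all 3 tested B cell markers were higher. So were 4 of 7 astrocyte and 2 of 6 tested oligodendrocyte markers. All 5 tested T cell, 4 of the 10 border macrophage and 3 of the 10 monocyte markers were lower. The part of these cells in the results for the 8 genes was not tested.

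Because Cd274 and Vsir moved in opposite directions and Lgals9 was not called at day 21, the sequences before their starts are shown together. RefSeq windows on build GRCm38.p6 were found for 6 of the 8 genes, not for Cd86 and Cd40, and each was searched on both strands for TTCNNNGAA (GAS, a site known from interferon-gamma-induced genes), for GAAA, 2 bases of any kind and GAAA (ISRE, the site of interferon regulatory factors), and for GGGA, 2 bases of any kind and TTCC (NF-kappaB), motifs that did not overlap each other in these windows. Of 32851 windows of 300 bases, 8.3% held the first, 3.44% the second and 1.47% the third. The lines below run 5′ to 3′ on the strand of each gene, from 250 bases before the start to 30 bases after it, with matches in capitals.
Cd274, chr19:29367188-29367467, plus strand: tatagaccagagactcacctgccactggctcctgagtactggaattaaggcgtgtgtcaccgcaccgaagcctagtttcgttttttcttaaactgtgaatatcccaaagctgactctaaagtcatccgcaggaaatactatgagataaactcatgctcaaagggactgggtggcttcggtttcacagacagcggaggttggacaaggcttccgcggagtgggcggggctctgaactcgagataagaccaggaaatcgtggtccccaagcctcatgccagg
Vsir, chr10:60346601-60346880, plus strand: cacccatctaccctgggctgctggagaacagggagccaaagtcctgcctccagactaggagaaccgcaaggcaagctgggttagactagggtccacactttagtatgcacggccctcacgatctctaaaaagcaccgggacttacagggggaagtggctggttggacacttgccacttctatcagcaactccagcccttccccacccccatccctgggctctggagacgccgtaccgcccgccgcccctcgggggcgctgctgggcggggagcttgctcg
Lgals9, chr11:78984895-78985174, minus strand: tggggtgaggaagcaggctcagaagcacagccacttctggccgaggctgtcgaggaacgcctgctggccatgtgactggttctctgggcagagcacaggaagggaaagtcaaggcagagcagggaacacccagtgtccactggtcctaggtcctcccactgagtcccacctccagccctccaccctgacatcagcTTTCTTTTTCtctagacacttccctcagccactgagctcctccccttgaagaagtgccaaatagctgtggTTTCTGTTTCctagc
Lgals9 alone held a match, in both cases the ISRE letters read on the opposite strand, beginning 55 bases before and 15 bases after the start. None of the letters were found in the windows of Cd274, Vsir, Cd80, Icosl or Havcr2. A match is a run of letters and not a measured binding site, and these windows leave out sites farther away.

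Among the costimulatory ligands, Cd80 (ENSMUSG00000075122, GRCm38 chr16:38455561-38496335, plus strand) was the least abundant, with 51 to 135 counts per library. Its levels in naive mice were 12.2 to 15.4 CPM in KO, 11.4 to 13.9 CPM in old and 12.6 to 15.7 CPM in WT libraries. At day 21 they were 8.11 to 10.8 CPM in KO and 8.20 to 11.6 CPM in WT, below every naive library of the same genotype. Cd80 fell at day 21 against naive in KO (log2 fold change −0.51, SE 0.165, edgeR adjusted p = 0.0138) and by a like amount in WT (−0.51, SE 0.18, edgeR adjusted p = 0.0418), and the difference between these changes was 0.00 (SE 0.242, edgeR adjusted p = 0.996). The day 35 levels were 7.64 to 11.4 CPM in KO, 11.6 to 13.5 CPM in old and 7.76 to 13.4 CPM in WT libraries, with a fall against naive called in KO (−0.51, SE 0.164, edgeR adjusted p = 0.0252) and not in WT (−0.32, SE 0.165, edgeR adjusted p = 0.179). The WT call at day 21 was lost without naive WT 2 (edgeR adjusted p = 0.0866), naive WT 4 (0.117), day 21 WT 2 (0.197) or day 21 WT 3 (0.129), and with no filter on low counts (0.176), in a fit of only those groups (0.0506) or with a block by index (0.0648). That of KO at day 21 was lost without day 21 KO 3 (0.0538). That of KO at day 35 was lost with no filter (0.0733) or without naive KO 1 (0.0576), naive KO 3 (0.0768), day 35 KO 2 (0.0912) or day 35 KO 4 (0.0739).

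Cd86 (ENSMUSG00000022901, GRCm38 chr16:36603869-36666081, minus strand), the other ligand of CD28, was called in no comparison in the fit of all 30 libraries. Its group means lay between 165.2 and 205.5 CPM, and the ranges of all groups next to each other in that order overlapped. The lowest group was day 21 KO, with 167.1, 153.0, 167.4 and 173.2 CPM, against 177.2, 207.5 and 231.8 CPM in day 21 WT. These ranges did not overlap, and the log2 fold change was −0.32 (SE 0.143, edgeR adjusted p = 0.121, with an interval of 2 SE from −0.60 to −0.03). A fit of only those 2 groups called it (−0.33, edgeR adjusted p = 0.00275), as did the fit without the 4 libraries named above (−0.32, edgeR adjusted p = 0.0444). Neither fit left out a day 21 library, and the log2 fold change hardly moved. Every day 21 KO library also lay below every naive KO one, at −0.29 (SE 0.133, edgeR adjusted p = 0.078). This was called by a fit of only those groups (−0.30, edgeR adjusted p = 0.00364) and without the 4 libraries (−0.33, edgeR adjusted p = 0.0222).

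Icosl (ENSMUSG00000000732, GRCm38 chr10:78069302-78083913, plus strand), the ligand of ICOS, was highest at day 21 in both genotypes. Day 21 libraries held 223.3, 210.9, 228.5 and 224.0 CPM in KO and 215.7, 231.4 and 239.6 CPM in WT, and naive ones 177.5, 181.2, 183.2 and 153.2 CPM in KO and 141.6, 135.6, 144.8 and 151.8 CPM in WT. Icosl rose at day 21 against naive by 0.35 on the log2 scale in KO (SE 0.113, edgeR adjusted p = 0.0125) and by 0.67 in WT (SE 0.121, edgeR adjusted p = 2.4e-04). At that stage KO and WT overlapped and differed by −0.05 (SE 0.122, not called by edgeR, with an interval of 2 SE from −0.29 to 0.20). At day 35 the rise over naive was called in WT (0.45, SE 0.114, edgeR adjusted p = 0.00676) and not in KO (0.15, SE 0.113, edgeR adjusted p = 0.356). In the fit of all 30 libraries the difference between the KO and WT changes was not called at day 21 (−0.32, SE 0.166, edgeR adjusted p = 0.217) or at day 35 (−0.30, SE 0.16, edgeR adjusted p = 0.319). Naive KO libraries all lay above naive WT ones, by 0.28 (SE 0.113, edgeR adjusted p = 0.468).

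Cd40 (ENSMUSG00000017652, GRCm38 chr2:165055627-165072948, plus strand), the receptor through which helper T cells license a presenting cell, was close to the counting floor in naive WT and rose in EAE in both genotypes. It had 2 to 195 counts per library and 22 counts over the 4 naive WT libraries together, so its naive folds are the least precise of the set. Day 21 KO held 22.8, 24.1, 26.3 and 28.9 CPM, against 5.69, 6.00 and 7.20 CPM in day 21 WT. The lowest KO library was thus above the highest WT library, and the log2 fold change was 2.01 (SE 0.486, edgeR adjusted p = 0.00495), or 4.02-fold. Leaving out any 1 of the 7 libraries gave 1.94 to 2.12, each called.

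Naive KO libraries held 1.64, 2.03, 5.53 and 0.293 CPM of Cd40, against 0.588, 0.469, 1.94 and 0.428 CPM in naive WT. The groups overlapped, and the log2 fold change of 1.42 (SE 0.592) was not called (edgeR adjusted p = 0.476). Naive WT 3, with the highest neutrophil sum of naive WT, had the highest Cd40 of that group. Naive KO 4, with the lowest sum of naive KO, had the lowest Cd40 of its group. The other ends did not match. Naive KO 1 had the highest sum of naive KO (2582 CPM) and naive WT 1 the lowest of naive WT (1529 CPM), and neither was extreme for Cd40. Without the 4 libraries of outlying marker sums the log2 fold change was 2.57 and called (edgeR adjusted p = 0.011), and the part of the marker cells in these levels was not tested. Cd40 rose at day 21 against naive by 3.40 in KO (SE 0.477, edgeR adjusted p = 2.4e-06) and by 2.82 in WT (SE 0.581, edgeR adjusted p = 0.00114). The difference between these rises was 0.58 (SE 0.796, edgeR adjusted p = 0.693).

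At day 35 Cd40 was at 4.01, 7.79, 6.62 and 7.20 CPM in KO, 10.46, 3.17 and 4.78 CPM in old and 6.58, 3.499, 2.98 and 1.59 CPM in WT libraries. All 3 groups overlapped, with KO over WT at 0.80 (SE 0.464, edgeR adjusted p = 0.343). In KO the level fell between day 21 and day 35 by 1.99 (SE 0.439, edgeR adjusted p = 0.0017), while the WT change of −0.78 (SE 0.493) was not called (edgeR adjusted p = 0.863). Whether these changes differed was tested and not called (−1.21, SE 0.662, edgeR adjusted p = 0.323). Day 35 stayed above naive in WT (2.04, SE 0.578, edgeR adjusted p = 0.0158) and in KO (1.41, SE 0.475, edgeR adjusted p = 0.0344). The WT call was lost without day 35 WT 1 (edgeR adjusted p = 0.0879) or naive WT 4 (0.0535). The KO call was lost when any 1 library other than day 35 KO 1 or naive KO 3 was left out (edgeR adjusted p from 0.0556 to 0.0956), and without naive KO 3 the log2 fold change was 2.21. It was lost too without the 4 libraries of outlying marker sums (1.01, edgeR adjusted p = 0.0502), with day 35 WT 3 moved to KO (1.25, edgeR adjusted p = 0.0657), with no filter on low counts (1.39, edgeR adjusted p = 0.0926) and in a fit of only those groups (1.42, edgeR adjusted p = 0.107).

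Cd274 (ENSMUSG00000016496, GRCm38 chr19:29367455-29388095, plus strand), which encodes PD-L1, had the largest fold difference of the checkpoint genes between KO and WT at day 21. Day 21 KO held 234, 217, 225 and 227 CPM, against 95.1, 70.4 and 74.1 CPM in day 21 WT. Every KO library lay above the highest WT library, and the log2 fold change was 1.50 (SE 0.275, edgeR adjusted p = 5.3e-04), or 2.83-fold. It stayed called when any 1 of the 7 libraries was left out, at 1.42 to 1.64. The antisense gene AC119228.1 overlaps Cd274, and the strand setting of the counting is not given in the sources used here, so reads of the pair may not be separated.

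In naive mice Cd274 was at 25.2, 29.8, 38.5 and 12.5 CPM in KO and 12.5, 13.4, 29.2 and 15.8 CPM in WT. These ranges overlapped through naive KO 4 and naive WT 3, and the log2 fold change of 0.58 (SE 0.271) was not called (edgeR adjusted p = 0.523). Without the 4 libraries of outlying marker sums it was 1.16 and called (edgeR adjusted p = 1.5e-04). Cd274 rose at day 21 over naive by 3.08 in KO (SE 0.267, edgeR adjusted p = 2.3e-09) and by 2.16 in WT (SE 0.282, edgeR adjusted p = 8e-06). The difference between these rises, 0.92 (SE 0.38), was not called (edgeR adjusted p = 0.12).

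The level of Cd274 fell in KO between day 21 and day 35 by 1.63 (SE 0.25, edgeR adjusted p = 5.2e-05). In WT every day 35 library also lay below every day 21 one, and the change of −0.70 (SE 0.268) was not called (edgeR adjusted p = 0.52). It was called in a fit of only those groups (edgeR adjusted p = 0.0348) and without the 4 libraries of outlying marker sums (−0.70, edgeR adjusted p = 0.00514). Neither fit left out a WT library of day 21 or day 35. The KO change differed from the WT change by −0.93 (SE 0.366), which was not called in the fit of all 30 libraries (edgeR adjusted p = 0.159). Day 35 KO held 71.6, 69.3, 73.2 and 76.96 CPM, and day 35 WT 52.9, 56.9, 44.8 and 41.6 CPM, while day 35 old averaged 80.9 ± 32.03 CPM (SD, n = 3). Every day 35 KO library lay above every WT one, yet the difference of 0.57 (SE 0.251) was not called (edgeR adjusted p = 0.217). It was called in a fit of those 2 groups alone (0.58, edgeR adjusted p = 0.00937) and without the 4 libraries of outlying marker sums (0.54, edgeR adjusted p = 0.013). Against naive, day 35 stayed higher in KO (1.45, SE 0.258, edgeR adjusted p = 4.3e-04) and in WT (1.46, SE 0.269, edgeR adjusted p = 9.98e-04), with a difference between these of −0.01 (SE 0.351, edgeR adjusted p = 0.997).

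Vsir (ENSMUSG00000020101, GRCm38 chr10:60346851-60372684, plus strand), which encodes VISTA, moved the other way. Day 21 KO held 898, 905, 962 and 962 CPM, against 1730, 1708 and 1845 CPM in day 21 WT. The groups were far apart relative to their spread, and the log2 fold change was −0.92 (SE 0.171, edgeR adjusted p = 4.2e-04), or 1.89-fold lower in KO. It stayed called when any 1 of the 7 libraries was left out, at −0.94 to −0.88. The gene lies across from Cdh23 on the opposite strand, where the same limit on strand applies.

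Naive levels of Vsir were 2290, 2393, 2266 and 2390 CPM in KO and 2520, 2521, 2102 and 2539 CPM in WT, and they overlapped (−0.05, SE 0.159, edgeR adjusted p = 0.96). Naive WT 3, with the highest neutrophil sum, was the lowest of its group. Vsir fell at day 21 against naive in KO by 1.32 (SE 0.162, edgeR adjusted p = 1.7e-07), while the WT change of −0.46 (SE 0.173) was just outside the threshold (edgeR adjusted p = 0.0572). It was called with DESeq2 (adjusted p = 0.0414), without naive WT 3 (−0.52, edgeR adjusted p = 0.0413), without the 4 libraries of outlying marker sums (−0.52, edgeR adjusted p = 5.2e-04) and in a fit of only those groups (−0.44, edgeR adjusted p = 0.0137). The day 21 change of Vsir was called as different between KO and WT, by −0.87 (SE 0.234, edgeR adjusted p = 0.0204), in a contrast that called 9.68% of all genes. It was the only one of the 8 so called in the fit of all 30 libraries, while Icosl (−0.38, edgeR adjusted p = 0.043) and Havcr2 (−0.66, edgeR adjusted p = 0.00935) were called too without the 4 libraries of outlying marker sums, and both in a fit of only the groups compared (edgeR adjusted p = 0.0471 and 0.00856). The Vsir call was lost without naive WT 3 (−0.81, edgeR adjusted p = 0.0531) or day 21 WT 3 (−0.83, edgeR adjusted p = 0.0602).

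By day 35 Vsir had risen again in KO, by 0.88 over day 21 (SE 0.16, edgeR adjusted p = 2.3e-04). The summed microglial markers were at 12910 to 19480 CPM in day 35 KO and 9993 to 10650 CPM in day 21 KO, and their part in the rise was not tested. Day 35 KO held 1891, 1796, 1900 and 1249 CPM, day 35 old 1051, 2310 and 1855 CPM, and day 35 WT 1644, 1735, 2419 and 2243 CPM. The low values of KO and old mice were those of day 35 KO 4 and day 35 old 1, with the lowest microglial marker sums of their groups. KO and WT overlapped (−0.23, SE 0.159, edgeR adjusted p = 0.425). The fall against naive was called in KO at day 35 (−0.45, SE 0.159, edgeR adjusted p = 0.0428), and it was lost when any 1 library other than day 35 KO 1 or 3 was left out (edgeR adjusted p from 0.0611 to 0.189), the highest of these without day 35 KO 4, where the change was −0.32 (edgeR adjusted p = 0.189). It was also lost with RLE size factors (0.0549), with a minimum count of 30 (0.0554), with no filter (0.0613) and with day 35 WT 3 moved to KO (0.133). Vsir in WT at day 35 against naive was −0.27 (SE 0.159, edgeR adjusted p = 0.24), and −0.33 and called without the 4 libraries of outlying marker sums (edgeR adjusted p = 0.0163).

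Lgals9 (ENSMUSG00000001123, GRCm38 chr11:78962974-78984946, minus strand), which encodes galectin-9, was near its naive level at day 21 in KO and WT. Its means at day 35 were alike, at 139.2 CPM in KO, 143.5 CPM in old and 143.4 CPM in WT. Each lay below the naive mean of its own kind, and the fall was called in KO and old mice only. At day 21 it was at 176.0, 177.7, 176.6 and 181.9 CPM in KO and 162.8, 164.6 and 158.9 CPM in WT. These ranges did not overlap, but the difference was small (0.14, SE 0.103, edgeR adjusted p = 0.378). Day 35 libraries held 113 to 161 CPM in KO, 128.7 to 164.2 CPM in old and 125 to 167 CPM in WT, against 161 to 189 CPM in naive KO, 189 to 222 CPM in naive old and 161 to 175 CPM in naive WT. The fall against naive was called in KO (−0.36, SE 0.095, edgeR adjusted p = 0.00739) and in old mice (−0.52, SE 0.104, edgeR adjusted p = 0.00144), and not in WT (−0.22, SE 0.095, edgeR adjusted p = 0.11). In a fit of only the old groups it was not called (−0.49, edgeR adjusted p = 0.0948). In KO it also fell between day 21 and day 35 (−0.35, SE 0.095, edgeR adjusted p = 0.00734). The difference of the KO from the WT change over naive was −0.15 (SE 0.134, edgeR adjusted p = 0.599). The KO call was lost without day 35 KO 4 (−0.27, edgeR adjusted p = 0.0527), and the WT change was called without day 35 WT 3 (−0.29, edgeR adjusted p = 0.0327), the library whose title says WT and whose knockout status says KO, and with it moved to KO (edgeR adjusted p = 0.0398).

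Havcr2 (ENSMUSG00000020399, GRCm38 chr11:46454935-46481255, plus strand), which encodes the receptor TIM-3, followed Vsir more than it followed its ligand Lgals9. Day 21 KO held 288, 277, 275 and 250.1 CPM, against 381, 379.5 and 379 CPM in day 21 WT. All KO libraries were below all WT ones, and the log2 fold change of −0.48 (SE 0.185) missed the threshold (edgeR adjusted p = 0.0677, with an interval of 2 SE from −0.85 to −0.11). It was called in the fit of those 2 groups alone (−0.49, edgeR adjusted p = 3.2e-06) and without the 4 libraries of outlying marker sums (−0.48, edgeR adjusted p = 0.00227). Neither fit left out a day 21 library, and the log2 fold change hardly moved. Havcr2 fell at day 21 against naive in KO (−0.76, SE 0.173, edgeR adjusted p = 7.9e-04), and the WT change was −0.16 (SE 0.186, edgeR adjusted p = 0.577). The difference between those changes was −0.60 in the fit of all 30 libraries (SE 0.252, edgeR adjusted p = 0.127). In KO the level at day 35, 281 to 434 CPM, was higher than at day 21 by 0.48 (SE 0.172, edgeR adjusted p = 0.0408), a call lost when any 1 library other than day 35 KO 4 was left out (edgeR adjusted p from 0.0585 to 0.118) or with no filter on low counts (0.101). Naive levels were 356 to 505 CPM in KO, 380.0 to 535 CPM in old and 388 to 454 CPM in WT libraries.

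**Figure D3:**
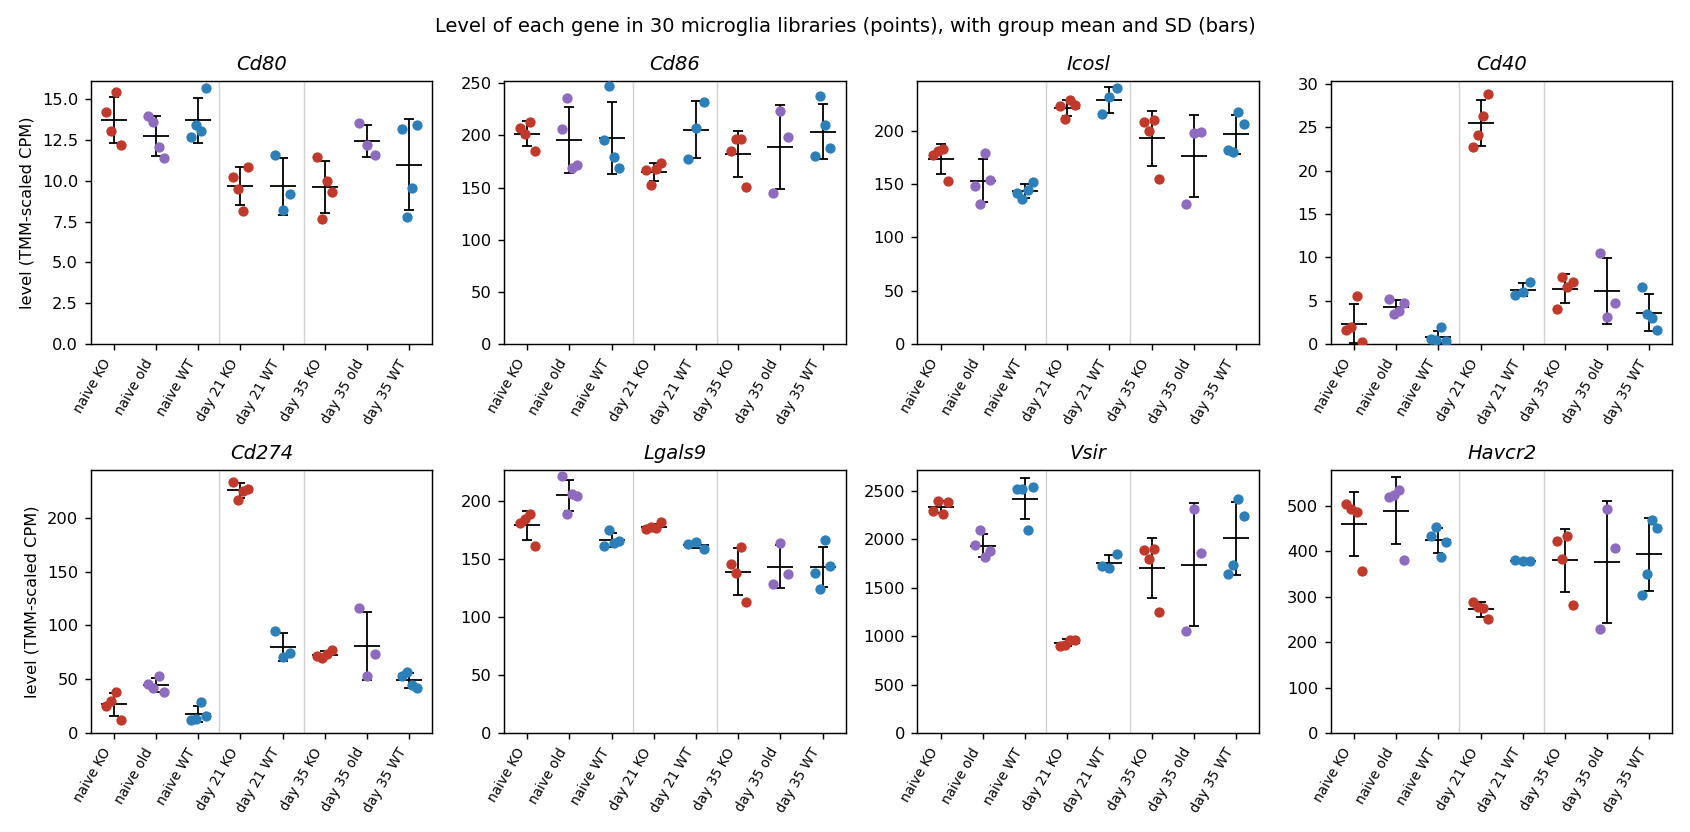
Level of each of the 8 genes (TMM-scaled CPM, linear axes from 0) in every library (points) of the 8 groups, with the group mean and SD as bars, in red for KO, purple for old and blue for WT. In the panels of Cd40 and Cd274 the 4 day 21 KO libraries lie above all other libraries, and in the panel of Vsir they lie below all others.

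Old mice were compared with WT among naive mice and at day 35. Cre and tamoxifen are not stated for old mice, so age cannot be told apart from them here. Naive old libraries held 45.99, 41.4, 53.1 and 38.1 CPM of Cd274, all above the 12.5, 13.4, 29.2 and 15.8 CPM of naive WT, and Cd274 rose by 1.32 (SE 0.27, edgeR adjusted p = 0.00336). Cd40 was at 5.25, 3.498, 3.89 and 4.72 CPM in naive old, above every naive WT library, and rose by 2.28 (SE 0.574, edgeR adjusted p = 0.0142). Lgals9 rose by 0.30 (SE 0.095, edgeR adjusted p = 0.046), a call lost when any 1 library other than naive old 2 or naive WT 2 was left out (edgeR adjusted p from 0.0572 to 0.141), with no filter (0.113) or in a fit of only those groups (0.0622). The Cd40 call was lost without naive WT 1 (2.12, edgeR adjusted p = 0.0568) or naive WT 4 (2.03, edgeR adjusted p = 0.065). Vsir was at 1945, 2095, 1820 and 1879 CPM in naive old, below all of naive WT, and its change of −0.32 (SE 0.159) was not called (edgeR adjusted p = 0.219) except without the 4 libraries of outlying marker sums (−0.39, edgeR adjusted p = 0.00876). The summed neutrophil markers ran from 6871 to 13080 CPM in naive old and from 1529 to 16310 CPM in naive WT, and the summed monocyte markers from 863 to 1347 CPM and from 148.3 to 1843 CPM, and their part in these results was not tested.

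At day 35 old mice overlapped WT for all 8 genes, with Cd274 at 0.72 (SE 0.268, edgeR adjusted p = 0.0929) as the nearest to a call. The spread between the 3 old libraries was wide, since day 35 old 1 had the highest Cd274 and Cd40 and the lowest Vsir and Havcr2 of all 11 libraries of that stage. Within old mice, Cd274 rose at day 35 over naive by 0.86 (SE 0.269, edgeR adjusted p = 0.0298), and without day 35 old 1 this was 0.50 (edgeR adjusted p = 0.201). The call was also lost without day 35 old 3 or naive old 1, 2 or 4 (edgeR adjusted p from 0.0577 to 0.0696), with no filter on low counts (0.0717) and in a fit of only those groups (0.0909), while without the 4 libraries of outlying marker sums it was called (0.51, edgeR adjusted p = 0.0155). Against day 35 WT, Cd274 was called without day 35 old 2 (0.95, edgeR adjusted p = 0.0238). Havcr2 in day 35 old over naive old was −0.38 (edgeR adjusted p = 0.151). Without day 35 old 2 it was −0.63 and called (edgeR adjusted p = 0.024). Icosl in day 35 old over naive old was 0.20 (edgeR adjusted p = 0.243) and, without day 35 old 1, 0.37 (edgeR adjusted p = 0.0225) or, without all 4 libraries, 0.38 (edgeR adjusted p = 0.00566). None of the 8 was called with edgeR or DESeq2 for a difference between the EAE changes of old and WT mice (0.0432% of all genes called, with 1 of the 8 and 11.7% of all genes at an unadjusted p under 0.05). Without the 4 libraries of outlying marker sums, Cd274 and Cd40 were called there, at −1.31 (edgeR adjusted p = 0.00182) and −2.98 (edgeR adjusted p = 0.0306). Nor was any of the 8 called with either tool for a difference between KO and WT in the change of day 35 over naive (0.367% of all genes) or of day 35 over day 21 (2.67%), with 0 and 2 of the 8 at an unadjusted p under 0.05, as were 17.8% and 19.2% of all genes. For day 35 over day 21, other fits did call some of the 8. Without the 4 libraries of outlying marker sums these were Cd274 (−0.96, edgeR adjusted p = 0.00138), Vsir (0.81, edgeR adjusted p = 4.8e-04) and Havcr2 (0.55, edgeR adjusted p = 0.0308). A fit of only the groups compared called Cd274 (−0.91, edgeR adjusted p = 9.4e-04) and Vsir (0.70, edgeR adjusted p = 0.024), and Vsir was also called without day 35 KO 4 alone (0.81, edgeR adjusted p = 0.0475) and with day 35 WT 3 moved to KO (0.90, edgeR adjusted p = 0.033).

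The neighbouring pathways were read from lists of genes. Of 17 genes of the interferon-gamma pathway, which is known to induce Cd274, 9 were higher and 1 lower in day 21 KO than in day 21 WT, with a median log2 fold change of 0.65 against 0.00 over all genes, of which 19.0% were called. The induced GTPase Gbp5 averaged 313.4 ± 27.0 CPM in KO and 111 ± 23.4 CPM in WT, and the GTPase Gbp2 averaged 503 ± 20.7 CPM in KO and 156.2 ± 39.2 CPM in WT (SD, n = 4 and 3). Their log2 fold changes were 1.50 and 1.69, with edgeR adjusted p of 5.9e-06 and 3.9e-04. The receptor gene Ifngr1, the most abundant of the list over all libraries, went the other way, with means of 390.6 CPM in KO and 653.3 CPM in WT. The part of this pathway in the level of Cd274 was not tested. In the same comparison 2 of 17 genes of CD40 signalling were higher and none lower, a smaller share than the 19.0% of all genes called, with a list median of 0.11. They were Traf1, an adaptor of the TNF receptor family (14.3 ± 1.597 CPM in KO and 1.67 ± 0.233 CPM in WT; log2 fold change 3.11, edgeR adjusted p = 0.00399), and Birc3, an inhibitor of apoptosis that binds TRAF2 (93.7 ± 5.50 and 62.1 ± 3.66 CPM; 0.59, edgeR adjusted p = 0.0108). Day 21 against naive called 11 of the 17 CD40 signalling genes higher in KO and 7 higher in WT, with 1 and 0 lower, and 11 and 9 of the 17 interferon-gamma genes higher, with 3 and 2 lower, where 45.2% of all genes were called in KO and 21.5% in WT.

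Of 28 other costimulatory or checkpoint ligands and receptors of presenting cells, 19 were tested, and 5 were higher and 2 lower in day 21 KO than in day 21 WT (19.0% of all genes called). Cd83, a surface marker of activated presenting cells, was lower (151.6 ± 6.86 CPM in KO, 266 ± 46.6 CPM in WT; −0.81, edgeR adjusted p = 3.9e-04). At day 35 it was higher in KO (294 ± 39.8 CPM in KO, 194 ± 32.1 CPM in WT, SD, n = 4 each; 0.60, edgeR adjusted p = 0.0241), and its change from day 21 to day 35 was called as different (1.41, edgeR adjusted p = 4.1e-04). Sirpa, the receptor for CD47, was lower at day 21 (1573 ± 22.2 and 2578 ± 141.6 CPM; −0.71, edgeR adjusted p = 0.00234). The galectins Lgals1 (27.7 ± 2.76 and 2.92 ± 1.77 CPM; 3.30, edgeR adjusted p = 4.2e-04) and Lgals3 (98.3 ± 15.3 and 13.01 ± 5.16 CPM; 2.93, edgeR adjusted p = 0.00686) were higher. Pdcd1lg2, the second ligand of PD-1, named here after its values were seen, was too low to be tested, with 33 counts over the 4 day 21 KO libraries and 11 over the 3 of day 21 WT. A list of 18 costimulatory, checkpoint and adhesion genes known from T cells held only some partners of the 8 genes. Of these 18, 12 were tested, and 4 were higher and 1 lower (19.0% of all genes called). Cd244a, a receptor for CD48, was higher (74.1 ± 9.50 and 18.8 ± 1.35 CPM; 1.98, edgeR adjusted p = 0.0081), while Lag3, a receptor for MHC class II, was lower (130 ± 15.1 and 385 ± 60.8 CPM; −1.57, edgeR adjusted p = 1.4e-04). Lag3 was the most abundant of that list in every group, at levels far above the summed T cell markers.

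Of 8 genes whose proteins are known to set the amount or place of PD-L1 protein, 2 were lower in day 21 KO than in day 21 WT and none higher, where 19.0% of all genes were called. Cmtm6, a membrane protein that protects PD-L1 from degradation, averaged 276 ± 17.9 CPM in KO and 434 ± 51.1 CPM in WT (−0.65, edgeR adjusted p = 0.00495), and its relative Cmtm4 34.9 ± 0.751 and 54.3 ± 2.79 CPM (−0.64, edgeR adjusted p = 0.0229). Their direction was opposite to that of Cd274 RNA, and no protein was measured. Of 7 tested partners of TIM-3 only Lck, a kinase of T cells, was called (2.74 ± 0.565 and 0.756 ± 0.943 CPM; 1.93, edgeR adjusted p = 0.0486). In naive old against naive WT, 5 of the 19 other ligands were higher and none lower, and 2 of the 12 tested T cell genes were higher, with 8.18% of all genes called. Among them was Pdcd1, which encodes PD-1 (31.9 ± 9.30 CPM in naive old and 5.87 ± 3.14 CPM in naive WT; 2.46, edgeR adjusted p = 0.00218). The 11 T cell markers together summed to 6.56 to 15.2 CPM in naive old and 3.89 to 8.23 CPM in naive WT. Which cells carried Pdcd1 was not tested.

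Across the 30 libraries some of the 8 genes went together and others ran opposite, given here as a description, since libraries of a group share genotype, age and stage. Cd40 and Cd274 had a Pearson r of 0.961 on log2 CPM, and 0.838 once each group's mean was taken out. Vsir and Havcr2 had an r of 0.841, and 0.844 within groups. Cd274 and Vsir ran opposite, with r of −0.89 over the libraries and −0.55 within groups. Cd86 went with Vsir (0.626, and 0.607 within groups) and Havcr2 (0.646 and 0.608). Icosl went with Cd274 over the libraries (0.62) but not within groups (−0.089), where it went with Vsir (0.722) and Havcr2 (0.763). Lgals9 had an r of −0.11 with Cd274 and 0.141 with Vsir over the libraries, and 0.683 with Vsir within groups. Cd80 ran opposite to Cd274 over the libraries (−0.546) and had an r of 0.195 with it and −0.026 with Vsir within groups.

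**Figure D4:**
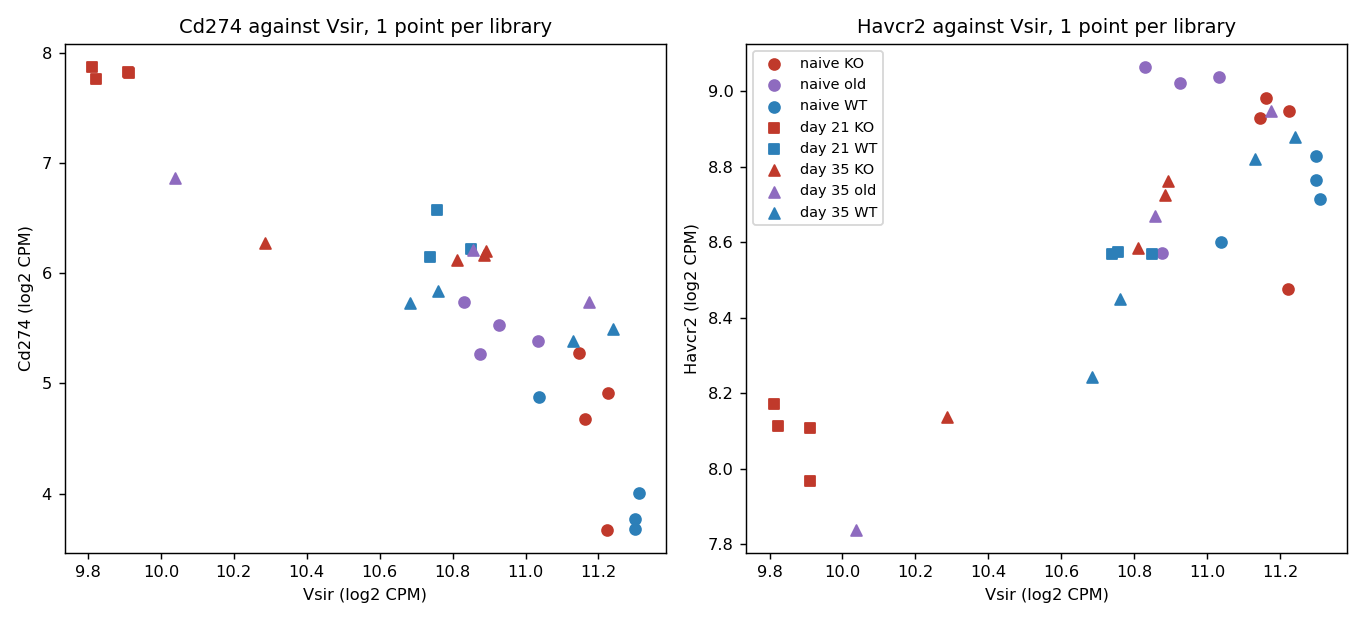
Log2 CPM of Cd274 (left) and Havcr2 (right) against Vsir, 1 point per library, with colours for KO, old and WT and shapes for naive, day 21 and day 35. The 4 day 21 KO libraries lie at the end of lowest Vsir in both panels, with day 35 old 1 and day 35 KO 4 next to them.

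The genes with the pattern most like each member were sought among 9515 genes with a mean of at least 5 CPM. For Cd274 they were Zbp1 (r 0.978), Ifi209 (0.971) and Ifi204 (0.970), and for Cd40 they were Cd274 (0.961), Cd244a (0.952) and Cd69 (0.951). Vsir was closest to P2ry13 (0.979), Snn (0.979) and Sirpa (0.973), and Havcr2 to Tpp1 (0.934), Cd34 (0.932) and Ptpra (0.929). The best matches were looser for Icosl (Elac2, 0.915), Cd86 (Vhl, 0.837), Lgals9 (Coro1b, just above Tmbim6 at 0.824) and Cd80 (Rgs19, 0.781).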

How the data were processed

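The deposited table held whole-number counts per gene, not normalized, with Ensembl identifiers, in 32 count columns, of which 30 were used and 2 with no sample were not. The clinical EAE score was taken as deposited with the labels. CASAVA, bcl2fastq, STAR and build GRCm38 are named in the submitters' processing notes; no source used here gives the counter, its strand setting or the versions. Columns were matched to samples by plate well. Symbols came from GENCODE M21 for 45143 of 46078 genes, and the 935 others held 0.0552% of counts. In 1 library the title and the knockout status disagree, and the title was followed. RNA integrity numbers were 8.5 to 10.

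Genes were kept with edgeR's filterByExpr (minimum count 10), scaled by TMM and fitted with edgeR 4.0.16 (R 4.3.3) by glmQLFit with robust dispersion, 1 mean per group, 22 residual degrees of freedom, and glmQLFTest with Benjamini-Hochberg adjustment per comparison over 13880 genes. Intervals are 2 SE either side. The procedure was tested on simulated data. Log2 CPM used a prior count of 2. Library totals of 4712803 to 11034565 limit the precision of low genes, Cd40 above all. The 8 genes and the lists were chosen with earlier results of these data known. All 8 were named in every comparison, and from other lists up to 4 called genes with the lowest adjusted p, from marker lists up to 2 of the highest level, and 3 genes most like each of the 8; some genes these rules chose are not reported here. Alternatives were DESeq2 1.42.0, other size factors and filters, only the groups compared, leaving out each library, the conflicting library moved or left out, a block by index, and, chosen after seeing the data, 4 libraries left out.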

Additional observations from a re-analysis of the deposited data

Results flagged for a closer look

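Of 48 pairs of a gene and a group of 4 libraries, 5 had a library whose gap to its nearest neighbour, divided by the group's range, passed Dixon's critical value at 95%. Chance alone flags about 1 in 20 such groups. Naive WT 3 was high for Cd40 at 1.94 CPM (0.894) and low for Vsir at 2102 CPM (0.957). Day 35 KO 4 was low for Vsir at 1249 CPM (0.84). Naive KO 4 was low for Havcr2 at 355.9 CPM (0.876), and naive old 4 was low for Havcr2 at 380.0 CPM (0.897). Naive old 4 had a neutrophil marker sum of 13080 CPM, the highest of naive old.

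The change of Vsir at day 21 over naive differed between KO and WT by −0.87 on the log2 scale (edgeR quasi-likelihood, adjusted p = 0.0204). The call was lost without naive WT 3 (edgeR adjusted p = 0.0531), flagged above as low for Vsir, or without day 21 WT 3 (edgeR adjusted p = 0.0602). At day 21 alone, Vsir was lower in all 4 KO libraries than in all 3 WT libraries.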

How the results depend on the processing

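The calls of Cd274, Cd40 and Vsir in day 21 KO against day 21 WT kept their direction and their side of the threshold under every alternative run. Of the pairs of a gene and a comparison, 32 were called, 75 were called under no setting, and 33 of these changed sign under some setting; no called value changed sign. Low counts limit Cd40 and Cd80 most. The difference between 2 groups in their change over time is called an interaction below.

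Without the 4 libraries of outlying marker sums, all genes called came to 215 for naive KO against WT, 849 for day 35 KO against WT, 2123 for naive old against WT, 55 for day 35 old against WT, 157 for WT day 35 against day 21, 97 for the KO interaction at day 35, 1434 for that of day 35 over day 21 and 76 for the old interaction. Of the 8 genes, 2, 5 and 1 were called for KO against WT in naive mice, at day 21 and at day 35, 1 for WT day 35 against day 21, 3 for each of the KO interactions at day 21 and of day 35 over day 21, and 2 for the old interaction. DESeq2 called 79 genes for naive KO against WT, 687 for day 35 KO against WT, 76 for WT day 35 against day 21, 471 for the KO interaction at day 35, 720 for that of day 35 over day 21 and 243 for the old interaction. With day 35 WT 3 moved to KO, the counts were 170 for day 35 KO against WT, 4 for WT day 35 against day 21, 13 for the KO interaction at day 35 and 769 for that of day 35 over day 21, and of the 8 genes 3 for KO day 35 against naive and 1 for the interaction of day 35 over day 21. With that library left out, WT day 35 against day 21 called 2 genes. A minimum count of 30 gave 14 for WT day 35 against day 21 and 121 for the KO interaction at day 35. No filter gave 143 for day 35 KO against WT, 849 for day 35 old against WT, 14 for WT day 35 against day 21 and 845 for the KO interaction at day 21, and of the 8 genes 2 for KO day 35 against naive and 1 for old day 35 against naive. Fits of only the groups compared called 18 genes for naive KO against WT, 4408 for day 21 KO against WT, 559 for day 35 KO against WT, 675 for naive old against WT, 0 for day 35 old against WT, 180 for old day 35 against naive, 93 for WT day 35 against day 21, and 2516, 119 and 1104 for the KO interactions at day 21, at day 35 and of day 35 over day 21. In these, 5 of the 8 genes were called for day 21 KO against WT, 1 for day 35 KO against WT, 1 for WT day 35 against day 21, 0 for old day 35 against naive, and 3 and 2 for the KO interactions at day 21 and of day 35 over day 21. The cause was not tested.

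The replicate block by i5 index called 647 genes for day 35 old against WT, 22 for WT day 35 against day 21 and 10 for the old interaction, and lost Cd80 in WT day 21 against naive (−0.47, edgeR adjusted p = 0.0648). Libraries sharing an index did not deviate together: over 98 pairs the median correlation was −0.006 (−0.511 to 0.334), and 8 of 30 libraries matched best with one of the same index.

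Leaving out 1 library at a time, KO against WT called 0 of the 8 genes in naive mice (11 to 69 of all genes), 3 at day 21 (1358 to 2231) and 0 at day 35 (53 to 453). WT called 3 to 5 of the 8 at day 21 against naive (1727 to 3002), 2 to 4 at day 35 against naive (1406 to 2857) and 0 at day 35 against day 21 (0 to 13). KO called 5 to 6 (5475 to 6089), 1 to 5 (1597 to 3107) and 4 to 5 (2590 to 3296) in the same order. The KO interactions called 0 to 1 at day 21 (514 to 1639), 0 at day 35 (7 to 190) and 0 to 1 for day 35 over day 21 (123 to 517). Old against WT called 1 to 3 in naive mice (494 to 1409) and 0 to 1 at day 35 (0 to 2044), old day 35 against naive 1 to 3 (973 to 3231), and the old interaction 0 (3 to 347).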
